A study of Mus musculus with 23 samples.

Results

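The creatine system of skeletal muscle was read in 8 genes, taken as a named list and matched by symbol to the Ensembl identifiers of the deposited count matrix, which holds 55573 gene identifiers. The list held the synthesis enzymes Gatm and Gamt, the creatine transporter Slc6a8, the creatine kinases Ckm, Ckb and Ckmt2, the AMP deaminase Ampd1 and the adenylate kinase Ak1. All 8 members were matched and all 8 passed the filter on low counts. Male and female C57Bl6 mice (C57BL/6J in the study's methods) of 8 to 10 weeks of age received a subcutaneous slow-release pellet for 14 days, and the RNA of the quadriceps, a thigh muscle made mostly of fast fibers, was sequenced. The corticosterone pellet contained 50 mg of corticosterone, the main glucocorticoid of mice, with 50 mg of cholesterol, and the vehicle pellet contained 100 mg of cholesterol. The groups were 6 vehicle-treated males, 6 corticosterone-treated males, 6 vehicle-treated females and 5 corticosterone-treated females, all fasted for 5 h before the tissue was taken. A mouse is called M or F, for its sex, followed by its labelled number.

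Creatine is made from arginine and glycine by glycine amidinotransferase (Gatm) and guanidinoacetate methyltransferase (Gamt), mainly in kidney and liver, and muscle takes most of it up from blood through a sodium-dependent transporter (Slc6a8). Inside the fiber, creatine kinases move phosphate between ATP and creatine, with a cytosolic muscle form bound in part to the sarcomere (Ckm), a cytosolic brain-type form (Ckb) and a mitochondrial form (Ckmt2). When ATP is used faster than it is made, adenylate kinase turns ADP into ATP and AMP, and AMP deaminase removes the AMP. The comparison of corticosterone with vehicle in each sex addresses which of these steps responds to a glucocorticoid at the RNA level, and the comparison between sexes whether the response differs.

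Between 20904150 and 21984477 read pairs were counted on genes in each mouse. Fkbp5, a direct glucocorticoid receptor target used as a check of the treatment labels, rose from 35.3 ± 12.5 to 361 ± 42.1 CPM (counts scaled by library size with TMM factors; mean ± SD, n = 6 each) in males and from 26.8 ± 14.4 (n = 6) to 221 ± 53.5 CPM (n = 5) in females. Of the 5 such targets named by the study, 5 were called higher in males and 1, Fkbp5, in females. Their median log2 fold change, corticosterone over vehicle, was 1.40 in males and 0.76 in females. Among the other cell types, 4 of 5 erythrocyte markers were called higher with corticosterone in each sex, and satellite cell markers lower for 1 of 3 in males and 3 of 3 in females. The satellite cell markers were near the floor: Calcr, the one called in males, had 2 to 9 counts in treated males and 0 to 8 in treated females. In F6, 1 of the 3 was at 0. The part of these cell types in the results was not tested. The 6 skeletal muscle fiber markers summed to between 54921 and 153253 CPM in every library. The summed CPM of 8 hepatocyte markers exceeded 1000 in F6, F10, M8, M9 and M12, and that of 6 adipocyte markers exceeded 1000 in F2, F3, F5, F6 and F10. Where leaving out the hepatocyte-marker or the adipocyte-marker libraries, a comparison chosen after seeing the data, changed a call or moved a fitted value of a member by over 1.5 times, both values are given. These fits keep 3 and 2 treated females, in the same order. Whether the male and female libraries were prepared together is not stated, so a batch cannot be told apart from sex. In a whole muscle, fewer cells of a type and less RNA per cell cannot be told apart either.

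In corticosterone-treated males 4 of the 8 members fell (Gamt, Ckb, Gatm and Slc6a8) and none rose, at an adjusted p below 0.01 in the quasi-likelihood test of edgeR, adjusted over 13049 genes by the Benjamini-Hochberg method, which is the test behind every adjusted p given here unless another is named. Of all genes tested in males, 26.3% passed in either direction and 13.1% passed as lower. In corticosterone-treated females 2 of the 8 members fell (Ampd1 and Slc6a8) and none rose, against 13.4% of all genes in either direction and 6.0% lower. The median log2 fold change (log2FC, corticosterone over vehicle) of the 8 members was -0.75 in males and -0.51 in females, beside medians over all genes of -0.02 and 0.04. Slc6a8 was the member called in both sexes. The values of all mice and the fitted changes are plotted by gene.

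**Figure D1:**
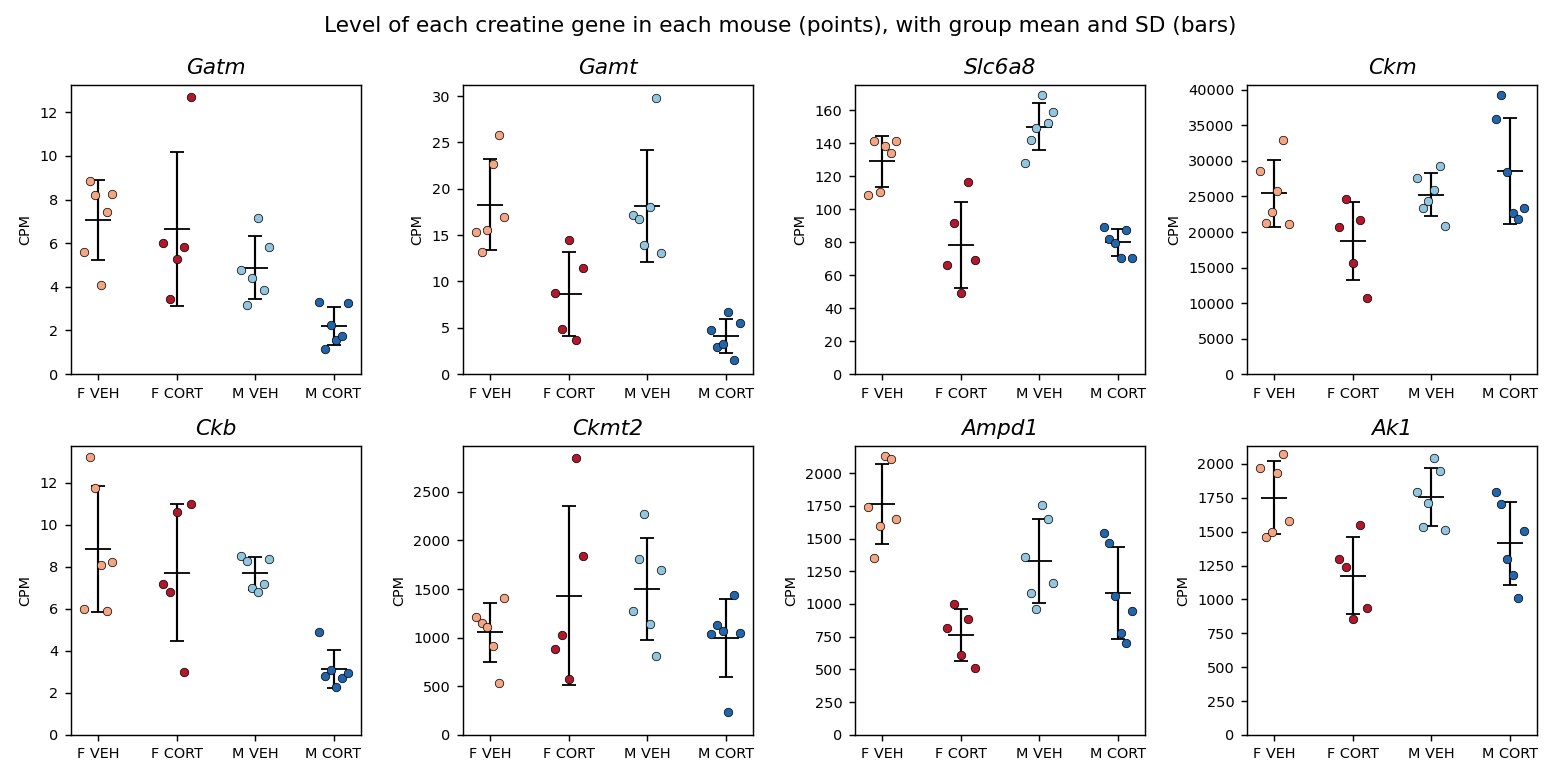
Level of each member in CPM (vertical axes, starting at 0) in vehicle-treated (VEH) and corticosterone-treated (CORT) females (F) and males (M); points are mice, the horizontal bar is the group mean and the vertical bar 1 SD. The male CORT points lie wholly below the male VEH points for Gamt, Slc6a8 and Ckb, and the female CORT points lie wholly below the female VEH points for Ampd1.

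**Figure D2:**
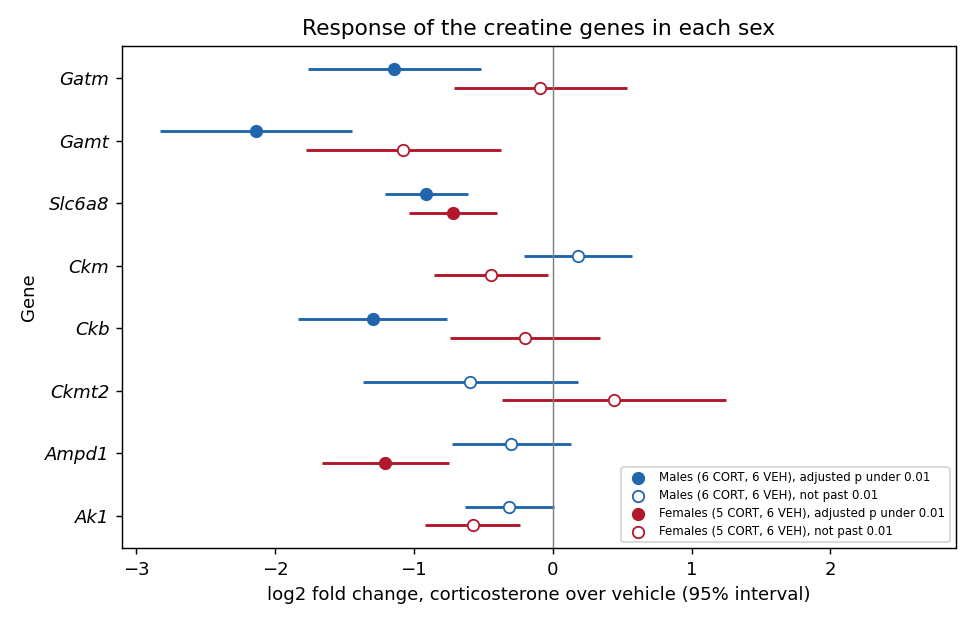
Fitted log2FC of corticosterone over vehicle (horizontal axis) with 95% intervals for each member in males and females; filled points passed an adjusted p of 0.01 in edgeR and open points did not. Male values run from -2.14 for Gamt to 0.18 for Ckm, and female values from -1.2 for Ampd1 to 0.44 for Ckmt2.

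The promoters of the members that moved together in males are shown first, since they share a direction, with that of Ckm, which was not called, for comparison. RefSeq promoter windows (GRCm38.p6, from 250 bases before to 50 bases after a start) were found for 6 of the 8 members, Gatm, Gamt, Ckm, Ckb, Ckmt2 and Ak1. The Gatm window is chr2:122611228-122611527 on the minus strand, the Gamt window chr10:80260963-80261262 on the minus strand, the Ckm window chr7:19410844-19411143 on the plus strand and the Ckb window chr12:111672289-111672588 on the minus strand. Each is written 5′ to 3′ on its gene's strand, and capitals mark an E-box (CANNTG, the core bound by myogenic factors), a TATA box (TATAAA) or a CCAAT box (CCAAT), each searched on both strands.
Gatm: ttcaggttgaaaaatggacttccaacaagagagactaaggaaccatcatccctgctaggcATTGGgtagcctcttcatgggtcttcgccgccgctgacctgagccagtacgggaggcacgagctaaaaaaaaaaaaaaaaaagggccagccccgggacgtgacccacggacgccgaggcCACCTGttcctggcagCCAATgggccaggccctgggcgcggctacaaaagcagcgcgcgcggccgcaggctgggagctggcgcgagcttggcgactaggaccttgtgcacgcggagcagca
Gamt: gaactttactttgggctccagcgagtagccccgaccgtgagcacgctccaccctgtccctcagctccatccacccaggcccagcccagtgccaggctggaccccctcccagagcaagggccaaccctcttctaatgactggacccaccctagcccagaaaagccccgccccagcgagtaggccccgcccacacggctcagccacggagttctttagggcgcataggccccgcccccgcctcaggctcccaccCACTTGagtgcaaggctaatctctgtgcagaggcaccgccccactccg
Ckm: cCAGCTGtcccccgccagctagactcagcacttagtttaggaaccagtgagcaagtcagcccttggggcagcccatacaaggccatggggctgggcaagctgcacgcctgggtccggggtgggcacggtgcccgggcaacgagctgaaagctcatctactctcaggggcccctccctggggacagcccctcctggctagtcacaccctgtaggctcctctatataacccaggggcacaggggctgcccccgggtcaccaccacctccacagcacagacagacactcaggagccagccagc
Ckb: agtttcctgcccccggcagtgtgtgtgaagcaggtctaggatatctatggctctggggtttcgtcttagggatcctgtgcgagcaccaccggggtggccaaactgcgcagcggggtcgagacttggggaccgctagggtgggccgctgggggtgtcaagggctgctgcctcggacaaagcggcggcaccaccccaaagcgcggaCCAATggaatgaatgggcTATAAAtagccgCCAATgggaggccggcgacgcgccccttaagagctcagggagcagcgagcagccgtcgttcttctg
The Gatm window held 1 E-box and 2 CCAAT boxes, the Gamt and the Ckm window held 1 E-box each, and the Ckb window held 1 TATA box and 2 CCAAT boxes. No marked motif overlaps another. The Ckm window lies inside the Ensembl span of the gene, which begins at an upstream start. Of all 32851 RefSeq promoter windows of this length, 72.3% held an E-box, 13.6% a TATA box and 37.4% a CCAAT box. The half-site of the glucocorticoid response element, AGAACA, was found on neither strand in any of the 9 windows of the 6 members and in 19.0% of all windows. This says only that these letters are not in the windows.

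Gatm (ENSMUSG00000027199; GRCm38 chromosome 2, 122594467 to 122611303, minus strand), the first enzyme of creatine synthesis, was the lowest member by level. In males its level was 3.17, 4.59 and 7.17 CPM with vehicle (lowest, median, highest of 6) and 1.16, 2.0 and 3.29 CPM with corticosterone (6 mice), counts of 21 to 150 per mouse. The ranges met only at the lowest vehicle mouse, M3, which lay under the treated M2 and M12. Gatm fell by 1.14 on the log2 scale in males (SE 0.30, adjusted p = 0.00470 in edgeR), to 0.454 of the vehicle level. This call was lost when M4, M7, M8, M10 or M11 was left out, with adjusted p from 0.0113 to 0.0146 in edgeR and log2FC from -1.08 to -1.0.

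In females Gatm was at 4.07, 7.81 and 8.84 CPM with vehicle and at 3.42 (F4), 5.29 (F6), 5.81 (F8), 6.0 (F2) and 12.7 CPM (F10) with corticosterone. The treated mouse F10 lay above every vehicle-treated female and the other 4 lay within or below their range. The log2FC was -0.09 (95% interval -0.71 to 0.53, adjusted p = 0.859 in edgeR). It was -0.50 without the hepatocyte-marker and -0.47 without the adipocyte-marker libraries (adjusted p = 0.336 and 0.576 in edgeR). Every corticosterone-treated male lay below every corticosterone-treated female for Gatm, a separation in this direction that 5.55% of all genes showed. All 6 Schwann cell and 4 of 5 macrophage markers were also called lower in males in that comparison. F10 had the highest summed hepatocyte (2488 CPM), Schwann cell (286 CPM) and macrophage markers (183 CPM) of any female. F6, with 1153 CPM of hepatocyte markers, lay within the vehicle range of Gatm. The part of these cells in the Gatm values was not tested.

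Gamt (ENSMUSG00000020150; GRCm38 chromosome 10, 80258151 to 80261012, minus strand), which methylates guanidinoacetate to creatine, had the largest fitted change of the 8 members in males. Its male levels were 13.1, 17.0 and 29.8 CPM with vehicle and 1.52, 4.02 and 6.66 CPM with corticosterone. No treated male reached any vehicle-treated male, the case for 3 of the 8 members (Gamt, Slc6a8 and Ckb) and for 11.1% of all genes in this direction. Gamt fell by 2.14 on the log2 scale (SE 0.33, adjusted p = 4.03e-05 in edgeR), to 0.228 of the vehicle level.

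In females Gamt was at 13.1, 16.3 and 25.8 CPM with vehicle and at 3.69 (F8), 4.82 (F4), 8.73 (F2), 11.5 (F10) and 14.5 CPM (F6) with corticosterone. F6 lay above 1 vehicle-treated female, F3, and the other 4 treated females lay below all of them. The log2FC was -1.07 (SE 0.34) with an adjusted p of 0.0228 in edgeR, not past 0.01. F6 and F10 are the treated females whose summed hepatocyte markers were above 1000 CPM (1153 and 2488). Among treated males the highest Gamt was in M8 and M12, with hepatocyte sums of 2579 and 1503 CPM, and among vehicle-treated males in M9, with 1513 CPM. The highest Gamt and the highest sum of a group coincided in 2 of the 4 groups (M9 and M8). The lowest coincided in 2 of the 4 (F3 and M10). M11, with a sum of 318 CPM, had the lowest Gamt of the vehicle-treated males. F9, with 87.5 CPM, had the highest Gamt of the vehicle-treated females. Without the 5 libraries over 1000 CPM the female log2FC was -1.68 (adjusted p = 0.00275 in edgeR) and the male log2FC -2.33, with the male call kept. Without the adipocyte-marker libraries the female log2FC was -2.25 (adjusted p = 0.0131 in edgeR). That fit keeps 2 treated females, F4 and F8, the lowest of their group for Gamt. The hepatocyte sums ranged from 35.5 to 330 CPM in vehicle-treated and from 50.2 to 2488 CPM in corticosterone-treated females, and from 16.4 to 1513 and 40.5 to 2579 CPM in the male groups. None of the 8 markers was at 0 in any library, and none of them passed the test in either sex. Their part in the Gamt values was not tested.

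**Figure D3:**
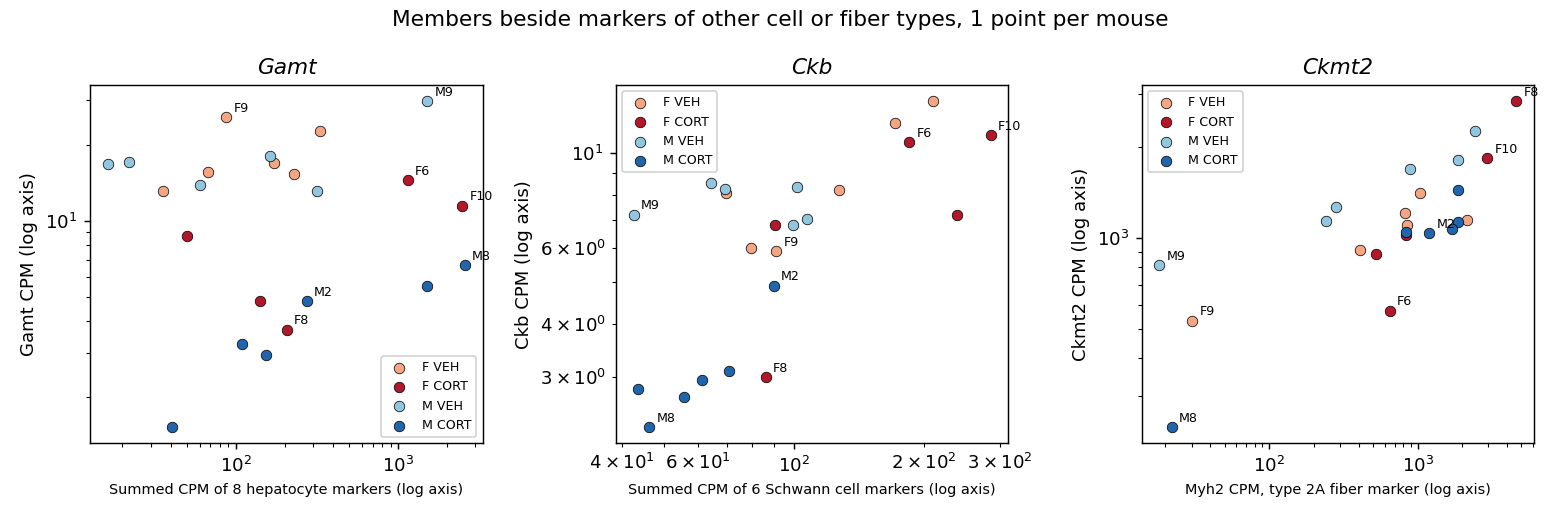
Gamt against summed hepatocyte markers, Ckb against summed Schwann cell markers and Ckmt2 against Myh2, all in CPM on log axes with 1 point per mouse colored by group. Among treated females F6 (1153 CPM of hepatocyte markers) and F10 (2488 CPM) have the highest Gamt, F10 has both the highest Ckb and the highest Schwann cell sum of its group, and M8, F9 and M9 combine the lowest Myh2 with low Ckmt2.

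Slc6a8 (ENSMUSG00000019558; GRCm38 chromosome X, 73673150 to 73682502, plus strand), the transporter that brings creatine into the fiber, fell in both sexes. In males it was at 128, 151 and 169 CPM with vehicle and at 70.2, 80.6 and 89.2 CPM with corticosterone, and the groups did not overlap. The male log2FC was -0.91 (SE 0.15, adjusted p = 4.92e-05 in edgeR), a level of 0.532 of vehicle. The spread among treated males was small, with a coefficient of variation of 10.1%.

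In females Slc6a8 was at 108, 136 and 141 CPM with vehicle and at 48.9 (F6), 66.0 (F2), 69.0 (F10), 91.4 (F4) and 116 CPM (F8) with corticosterone. F8 lay among the vehicle-treated females and the other 4 treated mice lay below them. The female log2FC was -0.72 (SE 0.15, adjusted p = 0.00177 in edgeR), a level of 0.608 of vehicle. The difference between the sexes in this response was -0.19 (95% interval -0.62 to 0.24, adjusted p = 0.551 in edgeR), -0.29 without the hepatocyte-marker and -0.56 without the adipocyte-marker libraries. The female call was lost with the females fitted alone (adjusted p = 0.0279 in edgeR), without the hepatocyte-marker libraries (log2FC -0.51, adjusted p = 0.0339) and without the adipocyte-marker libraries (log2FC -0.34, adjusted p = 0.20). The adipocyte sums ranged from 57.5 to 1706 CPM in vehicle-treated and from 36.7 to 4147 CPM in corticosterone-treated females. Among treated females F6, with the highest adipocyte sum, had the lowest Slc6a8, and F8, with the lowest sum, had the highest. Among vehicle-treated females F11, with the lowest sum, had the highest Slc6a8 (141 CPM). F1, with a sum of 112 CPM, had the lowest (108 CPM), while F3, with 1571 CPM, was at 141 CPM. Of the 6 adipocyte markers 1 passed the test in females, as higher, and 1 was at 0 in F1. The part of adipocyte RNA in the female Slc6a8 values was not tested. In males the adipocyte sums stayed between 30.3 and 550 CPM, and the male call held without either set of libraries, with log2FC from -0.90 to -0.81.

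Ckm (ENSMUSG00000030399; GRCm38 chromosome 7, 19404776 to 19422841, plus strand), the muscle creatine kinase of the cytosol and the M-line, was the most abundant member. In males it was at 20838, 25151 and 29224 CPM with vehicle and at 21891, 25876 and 39273 CPM with corticosterone. M2 and M4 lay above every vehicle-treated male and the other 4 treated males within their range. The male log2FC was 0.18 (95% interval -0.21 to 0.57, adjusted p = 0.465 in edgeR), and 0.38 without the hepatocyte-marker libraries (adjusted p = 0.0927). In females it was at 21182, 24286 and 32929 CPM with vehicle and at 10766 (F10), 15615 (F6), 20771 (F2), 21694 (F8) and 24689 CPM (F4) with corticosterone. F2, F6 and F10 lay below every vehicle-treated female. The female log2FC was -0.44 (95% interval -0.85 to -0.03, adjusted p = 0.103 in edgeR), and -0.20 and -0.23 without the hepatocyte-marker and the adipocyte-marker libraries. The summed skeletal muscle fiber markers moved with these values. Among males they were highest in M2 (153253 CPM) and M4 (151624 CPM). Among females they were lowest in F10 (54921 CPM) and F6 (72592 CPM). In vehicle-treated males, however, the highest Ckm was in M9 and the highest sum in M7 (112071 CPM). The part of fiber RNA in the Ckm values was not tested. Ckm shares 451 exonic bases with the antisense gene A930016O22Rik, which the strand-specific counting keeps apart.

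Ckb (ENSMUSG00000001270; GRCm38 chromosome 12, 111669361 to 111672338, minus strand), the brain-type kinase found in many non-fiber cells, stood at counts of 51 to 308 per mouse. In males it was at 6.79, 7.72 and 8.51 CPM with vehicle and at 2.29, 2.89 and 4.91 CPM with corticosterone, with no overlap. Ckb fell by 1.30 on the log2 scale (SE 0.26, adjusted p = 0.000436 in edgeR), to 0.407 of the vehicle level. In females it was at 5.91, 8.15 and 13.2 CPM with vehicle and at 3.0 (F8), 6.79 (F4), 7.18 (F2), 10.6 (F6) and 11 CPM (F10) with corticosterone. Only F8 lay below the vehicle-treated females. The female log2FC was -0.20 (95% interval -0.74 to 0.34, adjusted p = 0.613 in edgeR). It was -0.67 without the hepatocyte-marker and -0.53 without the adipocyte-marker libraries (adjusted p = 0.159 and 0.334 in edgeR).

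The highest Ckb of a group was in the mouse with the highest summed level of 6 Schwann cell markers in 3 of the 4 groups (F3, F10 and M2), and the lowest Ckb in the mouse with the lowest sum in 1 of the 4 (F8). The Schwann cell sums ranged from 69.8 to 210 CPM in vehicle-treated and from 86.2 to 286 CPM in corticosterone-treated females, and from 42.6 to 107 and 43.5 to 89.9 CPM in the male groups. In males none of the 6 Schwann cell markers passed the test with corticosterone. Between the corticosterone-treated sexes all 6 passed, as lower in males, which moves with the Ckb values of that comparison. So did 4 of 5 macrophage markers, whose sums ranged from 55.7 to 183 CPM in corticosterone-treated females and from 41.8 to 61.7 CPM in corticosterone-treated males. None of the macrophage markers passed with corticosterone within either sex. No Schwann cell or macrophage marker was at 0 in any library. Adipocyte markers also moved with Ckb in females. Among treated females F8 had the lowest adipocyte sum (36.7 CPM) and the lowest Ckb. F6 and F10, with 4147 and 1808 CPM, had the highest Ckb. Among vehicle-treated females F3 and F5, with 1571 and 1706 CPM, had the highest Ckb, while F9, with 985 CPM, had the lowest. The part of Schwann cells, macrophages and adipocytes in the Ckb values was not tested. The pseudogenes Ckb-ps1 and Ckb-ps2 had at most 2 counts.

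Ckmt2 (ENSMUSG00000021622; GRCm38 chromosome 13, 91853387 to 91876885, minus strand), the mitochondrial creatine kinase of striated muscle, was not called in either sex and varied widely within groups, with coefficients of variation from 28.6% to 64.0%. In males it was at 812, 1484 and 2272 CPM with vehicle and at 236, 1059 and 1439 CPM with corticosterone. The groups overlapped except for M8, which lay far below all other males. The male log2FC was -0.59 (95% interval -1.37 to 0.18, adjusted p = 0.215 in edgeR). In females it was at 531, 1128 and 1407 CPM with vehicle and at 574 (F6), 882 (F2), 1023 (F4), 1838 (F10) and 2844 CPM (F8) with corticosterone. F8 and F10 lay above every vehicle-treated female. The female log2FC was 0.44 (95% interval -0.37 to 1.25, adjusted p = 0.427 in edgeR), and 0.92 without the adipocyte-marker libraries (adjusted p = 0.364).

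Low Ckmt2 often came with low Myh2, the myosin of oxidative type 2A fibers. In 3 of the 4 groups the mouse with the lowest Ckmt2 was the mouse with the lowest Myh2, namely F9 (531 CPM of Ckmt2, 30.4 CPM of Myh2), M9 (812 and 18.2 CPM) and M8 (236 and 22 CPM). The highest levels coincided in 2 of the 4 groups, in F8 (2844 CPM of Ckmt2 and 4622 CPM of Myh2) and M5 (2272 and 2436 CPM). This was not particular to Myh2. The sum of 9 slow fiber markers was also lowest of its group in F9 (63.2 CPM), M9 (65.6 CPM) and M8 (61.0 CPM). It was also highest of its group in M5 (6239 CPM). Among treated females, however, that sum was highest in F2 (3697 CPM) and lowest in F4 (271 CPM). Myh2 itself ranged from 18.2 to 2436 CPM in vehicle-treated and from 22 to 1871 CPM in corticosterone-treated males, and from 30.4 to 2156 and 526 to 4622 CPM in the female groups. The part of fiber type in the Ckmt2 values was not tested. The second mitochondrial kinase, Ckmt1, had at most 19 counts in a mouse and was not tested.

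Ampd1 (ENSMUSG00000070385; GRCm38 chromosome 3, 103074014 to 103099720, plus strand), the muscle AMP deaminase, fell in females. Its female levels were 1348, 1696 and 2129 CPM with vehicle and 510 (F10), 613 (F6), 819 (F2), 885 (F8) and 997 CPM (F4) with corticosterone. No treated female reached a vehicle-treated one, the case for 1 of the 8 members in females and for 4.34% of all genes in this direction. Ampd1 fell by 1.2 on the log2 scale (SE 0.22, adjusted p = 0.000585 in edgeR), to 0.434 of the vehicle level. In males it was at 960, 1260 and 1754 CPM with vehicle and at 702, 1000 and 1541 CPM with corticosterone, and the groups overlapped. The male log2FC was -0.30 (95% interval -0.72 to 0.13, adjusted p = 0.264 in edgeR), and -0.067 without the hepatocyte-marker libraries (adjusted p = 0.835).

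The female Ampd1 call was lost without the hepatocyte-marker libraries (log2FC -0.99, adjusted p = 0.0137 in edgeR) and without the adipocyte-marker libraries (log2FC -1.03, adjusted p = 0.0703), which leave 3 and 2 treated females. The 9 fast fiber markers, which mark the fibers where Ampd1 is abundant, summed to between 117475 and 186994 CPM in vehicle-treated and between 80528 and 164139 CPM in corticosterone-treated females. Of these markers 2 passed the test in females, as lower, and none was at 0. Their part in the Ampd1 values was not tested.

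Ak1 (ENSMUSG00000026817; GRCm38 chromosome 2, 32621758 to 32635058, plus strand), the cytosolic adenylate kinase, was not called in either sex. In males it was at 1510, 1754 and 2046 CPM with vehicle and at 1011, 1400 and 1796 CPM with corticosterone, with a log2FC of -0.31 (95% interval -0.63 to 0.01, adjusted p = 0.114 in edgeR). In females it was at 1458, 1756 and 2074 CPM with vehicle and at 852 (F6), 935 (F10), 1239 (F4), 1298 (F2) and 1550 CPM (F8) with corticosterone. F8 lay among the vehicle-treated females and the other 4 below them. The female log2FC was -0.58 (SE 0.16, adjusted p = 0.0130 in edgeR), and -0.38 without the hepatocyte-marker libraries (adjusted p = 0.18). DESeq2 gave an adjusted p of 0.00286 and limma-voom one of 0.00964 for this change.

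None of the 8 members passed the test of the difference between the male and the female response, which 0.690% of all genes did. DESeq2 and limma-voom called none of the 8 either. At an unadjusted p below 0.05 in edgeR, 5 of the 8 passed. The share of all genes at this unadjusted p is not given, so the count is not read as an excess among the members. At an adjusted p below 0.05 in edgeR, 2 of the 8 members and 1648 of the 13049 genes passed. The male response minus the female response was -1.10 for Ckb (95% interval -1.85 to -0.35, adjusted p = 0.0494 in edgeR) and 0.91 for Ampd1 (0.29 to 1.53, adjusted p = 0.0492). It was -1.05 for Gatm (-1.93 to -0.17, adjusted p = 0.0942) and -1.06 for Gamt (-2.02 to -0.10, adjusted p = 0.121). That Gatm, Gamt and Ckb were called in males and not in females, and Ampd1 in females and not in males, is therefore not a called difference between the sexes. Without F8 the Ckb difference was -1.30 with an adjusted p of 0.00639 in edgeR, while it was -0.52 without the hepatocyte-marker and -0.75 without the adipocyte-marker libraries (adjusted p = 0.501 and 0.219). The Gamt difference was -0.64 and 0.13 without these libraries, in the same order, and the Gatm difference -0.66 without the adipocyte-marker libraries. The Ak1 difference was 0.26 (95% interval -0.20 to 0.73, adjusted p = 0.430 in edgeR), and 0.15 and 0.14 without the hepatocyte-marker and the adipocyte-marker libraries.

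Among vehicle-treated mice no member differed between the sexes at 0.01 in edgeR, in DESeq2 or in limma-voom, and none had an unadjusted p below 0.05 in edgeR, where 0.958% of all genes passed at 0.01. The 95% intervals of the male minus female log2 difference reached from -1.14 to 0.06 for Gatm and from -0.84 to 0.02 for Ampd1. Among corticosterone-treated mice 2 of the 8 members, Gatm and Ckb, were called in either direction, against 23.3% of all genes. Both were lower in males, and the share of all genes called lower in males is not given. Gatm was lower in males by a log2 difference of -1.59 (SE 0.31, adjusted p = 0.000693 in edgeR) and Ckb by -1.31 (SE 0.27, adjusted p = 0.000915). Both calls were lost without the hepatocyte-marker libraries (Gatm -1.24, adjusted p = 0.0313, Ckb -0.72, adjusted p = 0.145, edgeR) and without the adipocyte-marker libraries (Gatm -1.05, adjusted p = 0.0835, Ckb -0.63, adjusted p = 0.149). These comparisons share the corticosterone-treated groups with the comparisons within each sex.

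Levels per length were compared between members in CPM per kilobase of exon. In vehicle-treated females the order was Ckm (8727 ± 1608, SD, n = 6), Ckmt2 (709 ± 203), Ak1 (675 ± 104), Ampd1 (497 ± 86.2), Slc6a8 (24.7 ± 2.94), Gamt (12.6 ± 3.40), Ckb (3.06 ± 1.04) and Gatm (2.35 ± 0.62). Ckmt2, Ak1 and Ampd1 overlapped among mice, as did Ckb and Gatm, and the other neighbours in the order did not. In corticosterone-treated males the lower end moved down, to 2.85 ± 1.31 for Gamt, 1.08 ± 0.31 for Ckb and 0.74 ± 0.30 for Gatm (SD, n = 6), and Gamt then overlapped Ckb. Ckm ranked 10 of 13048 genes by level per length in each of the 4 groups. Gamt ranked 2478 in vehicle-treated and 6630 in corticosterone-treated males, and 2438 and 4427 in the female groups.

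**Figure D4:**
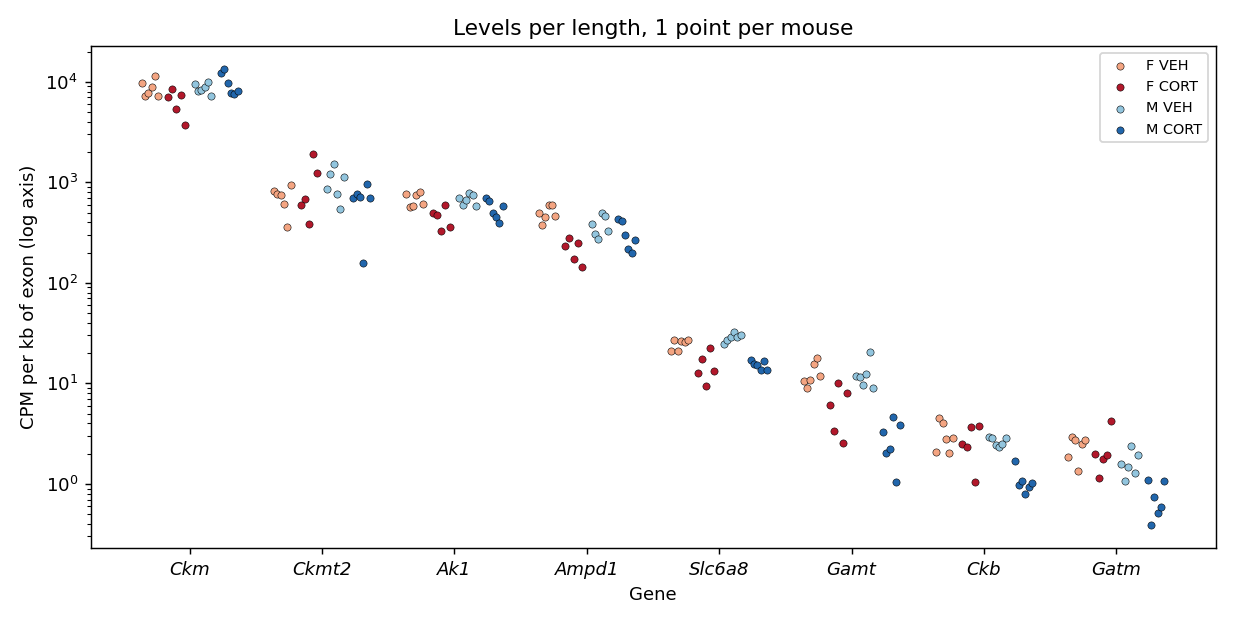
CPM per kilobase of exon (log axis) of each member, ordered by level, with 1 point per mouse colored by group. Ckm is the highest member in every mouse, Ckmt2, Ak1 and Ampd1 overlap, and the lowest Gamt, Ckb and Gatm points are those of corticosterone-treated males.

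Of the summed kinase level per length, Ckm made up 92.1% ± 2.91 in vehicle-treated and 86.5% ± 8.63 in corticosterone-treated females (SD, n = 6 and 5). In males its share was 89.4% ± 4.06 with vehicle and 93.5% ± 3.16 with corticosterone (SD, n = 6 each). Ckmt2 held 7.84% and 13.5% in the female groups and 10.6% and 6.51% in the male groups. The lowest Ckm share was in F10 (74.9%) and the highest in M8 (98.0%), the same mice in which Ckmt2 held 25.1% and 1.99%. The ranges of the Ckm and Ckmt2 shares of treated and vehicle-treated mice overlapped in both sexes. The Ckb share overlapped in females. In males it ran from 0.0235% to 0.0347% with vehicle and from 0.00684% to 0.0130% with corticosterone, without overlap, as did its level. No test was run on the shares. Ckb made up at most 0.077% in any mouse.

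Around these genes, lists of neighbouring steps were counted with the same test. The supply of arginine, glycine and methyl groups for creatine synthesis had 12 of 13 genes tested, of which 2 rose and 2 fell in males and 2 rose and 1 fell in females. Oat, which interconverts ornithine and glutamate semialdehyde, rose in males from 231 ± 18.4 to 693 ± 64.2 CPM (log2FC 1.58) and in females from 254 ± 39.8 to 448 ± 80.7 CPM (log2FC 0.82). Every treated mouse lay above every vehicle-treated mouse of its sex, the case for 10.8% of all genes in males and 3.38% in females in this direction. Ahcy, which clears the S-adenosylhomocysteine that methylation leaves, rose by a log2FC of 1.33 in males and 0.71 in females. Mat2a, which makes the methyl donor S-adenosylmethionine, fell by 0.71 on the log2 scale in males and by 0.46 in females. Mtr, methionine synthase, fell by 0.49 in males. The members of this list that moved serve many methylation and amino acid reactions besides creatine synthesis.

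Of the purine nucleotide cycle and AMP turnover other than Ampd1, 11 of 12 genes were tested, of which 1 rose and 3 fell in males and 1 rose and 1 fell in females. Adssl1, the muscle adenylosuccinate synthase that follows AMP deaminase in the cycle, fell by 0.48 on the log2 scale in males (adjusted p = 0.00239 in edgeR) and by 0.70 in females (adjusted p = 0.000380). Ampd2, a second AMP deaminase of low level in muscle, fell from 6.73 ± 1.21 to 4.05 ± 0.34 CPM in males, and Nt5c1a, which dephosphorylates AMP, rose from 8.51 ± 0.98 to 15.1 ± 6.29 CPM. Pnp, a purine nucleoside phosphorylase, rose from 3.57 ± 1.36 to 8.74 ± 4.49 CPM in females, an uncertain value because Pnp has a near-identical neighbouring copy with which it can share reads. No gene of the adenylate kinases other than Ak1 was called in either sex, of 4 tested out of 8. At an unadjusted p below 0.05 in edgeR 0 of the 4 passed in males and all 4 in females, where DESeq2 called 1 and limma-voom 4. The share of all genes at this unadjusted p is not given.

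Of 7 AMP-activated protein kinase subunits, the sensors of the AMP that Ak1 makes and Ampd1 removes, 1 fell in males and 0 were called in females by edgeR, DESeq2 or limma-voom, with 3 at an unadjusted p below 0.05 in edgeR. Prkag2, an AMP-binding gamma subunit, fell in males from 20.03 ± 6.10 to 6.77 ± 1.74 CPM (log2FC -1.57, adjusted p = 2.19e-05 in edgeR) and was at 16.8 ± 3.90 and 14.1 ± 4.28 CPM in the female groups. Of 6 genes of mitochondrial ATP, ADP and phosphate exchange, Vdac1, an outer membrane channel, fell in males (log2FC -0.49), and Slc25a5, an ADP/ATP carrier with many processed pseudogenes, rose in females (log2FC 0.98). Of 5 tested kinase and sarcomere partners, the M-line proteins Myom1 (log2FC 0.79) and Myom2 (log2FC 0.76), which bind muscle creatine kinase, rose in males, and in females none was called by the 3 tools or had an unadjusted p below 0.05 in edgeR. In the difference between the sexes' responses 0 genes of any of these lists passed 0.01 in edgeR. The lowest adjusted p there was 0.0113 for Oat, 12 of the 45 genes had an unadjusted p below 0.05, and DESeq2 and limma-voom called 2 each. The share of all genes at this unadjusted p is not given, so the 12 are not read as an excess. Of the 45 genes 12 (26.7%) were called in males and 6 (13.3%) in females, close to the 26.3% and 13.4% of all genes. These counts became 9 and 3 without the hepatocyte-marker libraries and 11 and 0 without the adipocyte-marker libraries.

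**Figure D5:**
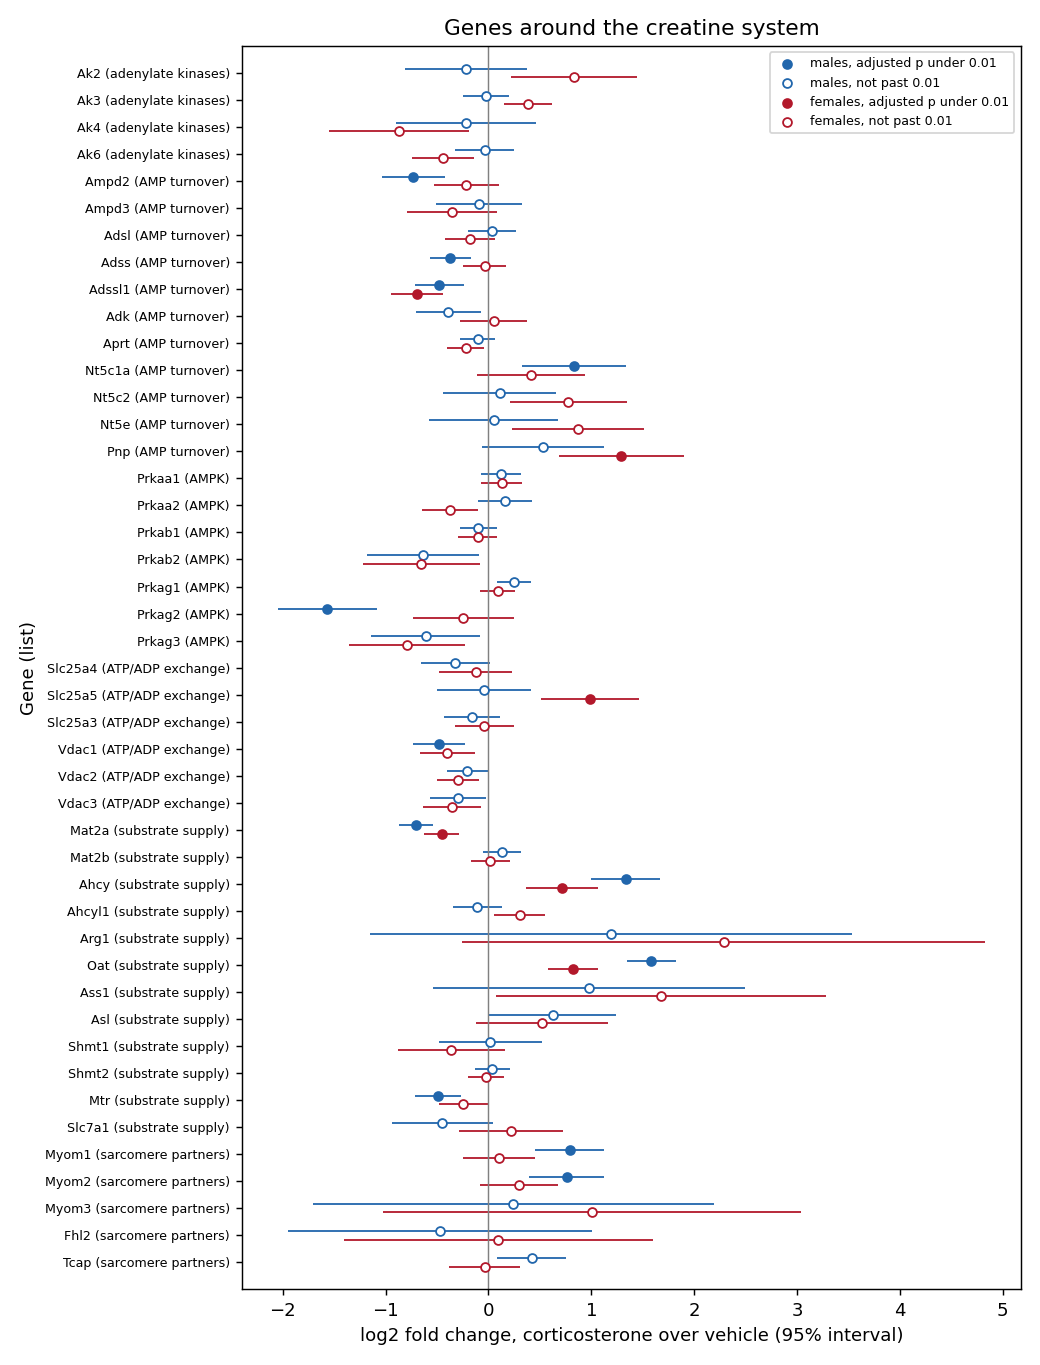
Fitted log2FC of corticosterone over vehicle with 95% intervals for the tested genes of the neighbouring lists in males and females; filled points passed an adjusted p of 0.01 in edgeR. Oat (1.58 in males, 0.82 in females) and Ahcy (1.33, 0.71) are called higher and Mat2a (-0.71, -0.46) and Adssl1 (-0.48, -0.70) lower in both sexes.

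For the members called in at least 1 sex, the most similar profiles over the 23 mice were measured by the root mean square difference in log2 CPM after each gene was centred, out of 13048 genes. Slc6a8 was closest to Vamp1 (0.16), Coq10a (0.17) and Msi2 (0.18), while its own SD over mice was 0.50. Ampd1, with an SD of 0.57, was closest to Tpm1 (0.20), Phkg1 (0.20) and Pgm1 (0.23). Ckb, with an SD of 0.75, was closest to Thbs3 (0.28), Pdlim4 (0.29) and Adgra2 (0.30), and Gatm, with an SD of 0.85, to Gpm6b (0.41), Gpc3 (0.42) and Il33 (0.42). Gamt, with an SD of 1.13, had no profile closer than 0.51, that of Lgi2, followed by Tst (0.54) and Ppic (0.54). These are descriptions over shared libraries.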

How the data were processed

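The authors aligned strand-specific read pairs of 100 bases from mRNA of whole quadriceps with STAR 2.7.3a to mm10 and counted them per Ensembl (release 97) gene with HTSeq 0.12.4, per the labels and the study's methods. The deposited values are raw counts per gene and mouse. All columns were used. In this work 5 summary entries (10.7% to 15.3% of pairs) were left out, and GENCODE M21 named 55480 of 55573 identifiers.

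Samples were grouped by their labelled sex and treatment. The study's filter (normalized counts above 20 in 4 or more mice of a group) left 13049 genes, which were fitted in R 4.3.3 with edgeR 4.0.16 (quasi-likelihood test, TMM factors 0.832 to 1.21, 1 mean per group, all 23 mice) and adjusted by Benjamini-Hochberg with a threshold of 0.01. SEs come from the fit and CPM values carry the TMM factors. The code was tested on simulated data. By its label each library is 1 mouse, and no replicates agreed within sampling noise (lowest chi-square per degree of freedom 15.2). The lowest count of a member in a mouse was 21 (Gatm).

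Alternatives were DESeq2 1.42.0, limma-voom (limma 3.58.1) with sample quality weights, the median of ratios, edgeR's filterByExpr, no filter beyond 1 count, each sex alone, thresholds, a replicate block and leaving out each mouse. Leaving out libraries by hepatocyte or adipocyte markers was chosen after seeing the data. The members and lists were chosen with earlier results of these data known. Named genes are all members, at most the 4 largest changes among called genes of each neighbouring list, and the 3 most similar profiles of each called member.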

Additional observations from a re-analysis of the deposited data

Results flagged for a closer look

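In 4 of 32 combinations of a member and a group, 1 mouse lay far from the others of its group by Dixon's criterion, which chance meets in about 1 of 20 groups. Gatm was highest among corticosterone-treated females in F10, at 12.7 CPM with the next mouse at 6.0 CPM. Gamt was highest among vehicle-treated males in M9, at 29.8 CPM with the next at 18.1 CPM. Ckb was highest among corticosterone-treated males in M2, at 4.91 CPM with the next at 3.10 CPM. Ckmt2 was lowest among corticosterone-treated males in M8, at 236 CPM with the next at 1038 CPM. Without F10 the Gatm log2FC between the corticosterone-treated sexes was -1.19 (edgeR adjusted p = 0.00428) and kept its call.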

How the results depend on the processing

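Of the 858 values recomputed for single members under an alternative, 827 kept direction and call, 16 lost a call, 12 gained one and 3 changed sign. The 3 were Gatm in females without F4 (log2FC 0.076, with -0.48 to 0.076 over all left-out mice), Ckb in females without F8 (0.0054, with -0.39 to 0.0054) and the Gamt difference between responses without the adipocyte-marker libraries (0.13). The 4 members called in males fell to 3 at an added limit of 1 on the log2FC, where Slc6a8 is lost, and were 4 under the other alternatives except some that left out 1 mouse. The 2 members called in females became 4 with DESeq2 (adding Gamt and Ak1), 3 with limma-voom, 4 at an adjusted p of 0.05, 1 with each sex fitted alone, 1 with the limit on log2FC, 1 without the hepatocyte-marker libraries (Gamt, with Slc6a8 and Ampd1 lost) and 0 without the adipocyte-marker libraries. For the difference between responses, 0 became 2 at 0.05 and 1 without F8. Between the corticosterone-treated sexes, 2 became 4 with DESeq2, limma-voom, an adjusted p of 0.05 or without F4, and 0 without the hepatocyte- or the adipocyte-marker libraries. Leaving out 1 mouse gave 3 to 4 members in males, 2 to 3 in females, 0 to 1 for the difference, 0 between vehicle-treated sexes and 2 to 4 between corticosterone-treated sexes. The cause of these changes was not tested.

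Over all genes, the 3426 calls in males became 3991 with DESeq2, 4129 with limma-voom, 2837 with no filter, 5191 at 0.05 and 982 with the limit on log2FC. Without the hepatocyte- and the adipocyte-marker libraries the male calls were 2427 and 3702. The 1748 in females became 2458 with DESeq2, 2454 with limma-voom, 3485 at 0.05, 732 with the limit and 561 with females alone. They became 460 and 96 without the hepatocyte- and adipocyte-marker libraries, and 1004 without F6. The 90 for the difference became 896 with DESeq2, 693 with limma-voom, 10 with no filter, 1648 at 0.05, 40 with the limit, 3 and 2 without the marker libraries, 1 without M3 and 893 without F8. The 125 between vehicle-treated sexes became 284 with DESeq2, 309 at 0.05 and 75 with the limit, and the 3043 between corticosterone-treated sexes became 5095, 1014, 290 and 206 at 0.05, with the limit and without the marker libraries, and 1885 without F10. These 3043 became 3843 with DESeq2, 3438 with limma-voom and 3333 without F4. Same-numbered males and females are not paired by the labels, and the correlation of their deviations ran from -0.38 to 0.48 over 11 pairs. With the numbers as a replicate block, 0 members were called for the difference, 0 between vehicle-treated and 3 between corticosterone-treated sexes. Treatment within a sex shares no numbers. The counts of Gatm and Ckb, down to 21 and 51 in a mouse, limit their precision.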
